A study of Mus musculus with 8 samples.

Results

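In small RNA libraries from MIN6B1 cells, 2837 of 11568 distinct listed read sequences were 1 substitution away from a miRNA sequence. A sequence was counted here when the table gave it no annotation hit and it differed at exactly 1 base from a listed sequence of the same length that carries a mouse miRNA or miRNA precursor hit. The hit sequence with the most summed counts was taken as its parent. In all, 9761 sequences had no hit, 941 had a miRNA hit, and 289 of the latter were parents. A single parent was possible for 2716 of the substituted sequences, 110 had 2 possible parents and 11 had 3.

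MIN6B1 is a mouse insulinoma line used as a model of pancreatic beta cells. Cells were transfected by lipofection with either a control plasmid or the HENMT1ΔC-T6B plasmid. HENMT1ΔC-T6B joins a shortened small RNA methyltransferase to the Argonaute-binding peptide T6B, so that miRNAs bound to Argonaute can be methylated at their 3′ terminus. Total RNA was then oxidized with sodium periodate (NaIO4) or left non-oxidized, which gave 4 groups of 2 libraries. Periodate damages unmethylated 3′ termini, which then cannot be ligated to an adapter, and spares methylated ones. The labels name no promoter and do not say whether the 2 libraries of a group came from separate cultures, so p-values measure only the spread between these libraries, which may be technical. The beta cell miRNAs miR-375-3p and miR-7a-5p were abundant in non-oxidized RNA (559007 to 567527 and 314142 to 467026 counts with the control plasmid). Among markers of other cells, miR-133a-3p, miR-142a-3p, miR-223-3p and miR-451a of muscle and blood cells had no listed sequence. The liver miR-122-5p and the neuronal miR-124-3p were listed, with 463 and 183 and with 515 and 232 counts in non-oxidized control RNA. In non-oxidized methyltransferase RNA they had 888 and 642, and 147 and 85. Absence from the listing does not show absence from the cells. Listed counts per library ranged from 295094 to 6641250, and the sequences were listed only where the oxidized methyltransferase libraries held at least 2 reads each and 10 in their sum.

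A miRNA guides Argonaute to its targets mainly through the seed, the stretch of bases behind its 5′ end. A read that differs from the miRNA at 1 base can come from several known sources. These include another member of the same miRNA family, adenosine-to-inosine editing by ADAR enzymes (inosine is read as guanine), a nucleotide added to the 3′ end by a terminal transferase, and errors of reverse transcription, amplification or sequencing. The let-7 family, whose members share 1 seed and differ at a few bases behind it, makes such reads hard to assign. The data give read letters and counts, and which source made a given read was not tested.

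The sequences below carry the results that follow. They are written 5′ to 3′ in the letters of the deposited reads (T stands for U), in lower case with the substituted base in capitals. In a token such as T13G, the parent has T at position 13 from the 5′ end and the substituted read has G. The first pair shows the most abundant interior change of the most abundant parent, the let-7c-5p read of 22 nt:
let-7c-5p parent: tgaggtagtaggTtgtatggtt
let-7c-5p T13G: tgaggtagtaggGtgtatggtt
The next pair is the most abundant substituted sequence of all, from a 24 nt read of the miR-7a precursors:
mir-7a parent: tggaagactagtGattttgttgtt
mir-7a G13T: tggaagactagtTattttgttgtt
Adenine-to-guanine changes are shown for miR-3099-3p and miR-141-3p. In non-oxidized control RNA their shares of parent reads stood above those of other such changes of the same parent:
miR-3099-3p parent: taggctAgagagaggttgggga
miR-3099-3p A7G: taggctGgagagaggttgggga
miR-141-3p parent: taacactgtctggtAaagatgg
miR-141-3p A15G: taacactgtctggtGaagatgg
A last-base change and a change that has the letters of another family member complete the set:
miR-375-3p parent: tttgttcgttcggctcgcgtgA
miR-375-3p A22T: tttgttcgttcggctcgcgtgT
let-7c-2 precursor parent: tgaggtagtaggttgtAtggtttt
let-7c-2 precursor A17G: tgaggtagtaggttgtGtggtttt

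The positions of the miRNAs given here were read from RefSeq (GRCm38.p6), as the build behind the deposited table is not given in the sources used here. Mature let-7c-5p lies at chr15:85706616-85706637 (Mirlet7c-2, plus strand) and chr16:77599672-77599693 (Mirlet7c-1, plus strand). Mature let-7b-5p lies at chr15:85707325-85707346 (plus strand). Mature miR-7a-5p lies at chr7:78888295-78888317 (Mir7-2, plus strand) and chr13:58392841-58392863 (Mir7-1, minus strand). Mature miR-3099-3p lies at chr7:6803638-6803659 (plus strand), miR-141-3p at chr6:124717917-124717938 (minus strand) and miR-429-3p at chr4:156053916-156053937 (minus strand). The seeds, in capitals, are those of RefSeq's mature sequences, shown because several changes below fall in or next to them:
let-7c-5p: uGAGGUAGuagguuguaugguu
miR-7a-5p: uGGAAGACuagugauuuuguugu
miR-3099-3p: uAGGCUAGagagagguugggga
miR-141-3p: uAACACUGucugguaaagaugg
miR-429-3p: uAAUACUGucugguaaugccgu

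The substituted sequences were mostly miRNA-sized and lay in the interior of the read. Of the 2837, 2713 were 20 to 24 nt long (range 16 to 72 nt). The parent had a mature miRNA hit for 2137 and a precursor hit only for 700, and let-7 parents held 1245. The change fell on the last base in 347 sequences, on the next to last in 151, in the seed (positions 2 to 8) in 812 and between the seed and the last 2 bases in 1526. Only 1 lay on the first base. The table's miRNA hits allow a different first base, and 165 sequences with a miRNA hit differed at the first base alone from a more abundant hit sequence. The authors' matching thus keeps most first-base changes out of the set described here. A genomic match was listed for 114 of the 2837.

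Counts of the substituted sequences ranged from 12 to 97833 over the 8 libraries, with a median of 146, and summed to 2852211. The parent held at least 10 times the counts of the substituted sequence in 2666 cases. In 43 cases the substituted sequence had at least as many counts as its parent, and 30 of these were changes of the last base. Abundant parents held a large part of the set: the 28 parents with over 100000 summed counts had 1303 substituted sequences. The let-7c-5p read of 22 nt, with 3594706 summed counts, had 58 of the 60 possible interior changes listed. The miR-16-5p read of 22 nt, with 791132 summed counts, had 18 of 60. Its parent reads numbered 2389 and 1386 in the oxidized methyltransferase libraries against 639939 and 540155 for let-7c-5p. Whether this accounts for the fewer listed changes was not tested.

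Transitions, the exchanges between A and G or between C and T, were the commonest interior changes. They made up 1323 of 2442 interior changes with a called base (54.2%) and 65.3% of the counts of those sequences. Over all positions, T-to-C was found in 521 sequences, G-to-A in 436, A-to-G in 379, T-to-G in 278 and G-to-T in 259, and the rarest called changes were C-to-A in 50 and C-to-G in 36. In 47 sequences the differing base was not called (N), at position 12 in 43 and position 14 in 4. Of 1199 distinct interior changes, counted once over the read lengths of a miRNA, 562 were seen at 2 or more lengths. The median share of parent reads in non-oxidized control RNA was 0.339% for A-to-G (312 sequences), 0.286% for T-to-C (428) and 0.152% for G-to-A (369). For T-to-A it was 0.0116% (134) and for G-to-C 0.0176% (160). These medians cover sequences whose parent had at least 1000 reads in each non-oxidized control library and more counts than the substituted sequence. The listing minimum leaves out the rarest changes, so the medians are those of listed changes.

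Substituted sequences held a larger part of the listed counts in non-oxidized and methylated RNA than in oxidized control RNA. They made up 9.33% and 8.51% of listed counts in the non-oxidized control libraries and 0.864% and 0.754% in the oxidized control libraries. With the methyltransferase they made up 11.5% and 9.14% without oxidation and 17.5% and 15.1% after it. The oxidized methyltransferase libraries were thus above all others, and the oxidized control libraries below all others. All substituted sequences had reads in the oxidized methyltransferase libraries. The listing can therefore raise the share there, and by how much was not tested. The mean share differed between oxidized and non-oxidized RNA by -8.11 percentage points with the control plasmid and by 5.93 with the methyltransferase. Both differences were larger than the spread within pairs, but the exact two-sided permutation test of 2 libraries against 2 cannot go below p = 0.333, which it gave here (adjusted p = 0.392 over 20 such tests, 17 of which had groups that did not overlap).

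**Figure D1:**
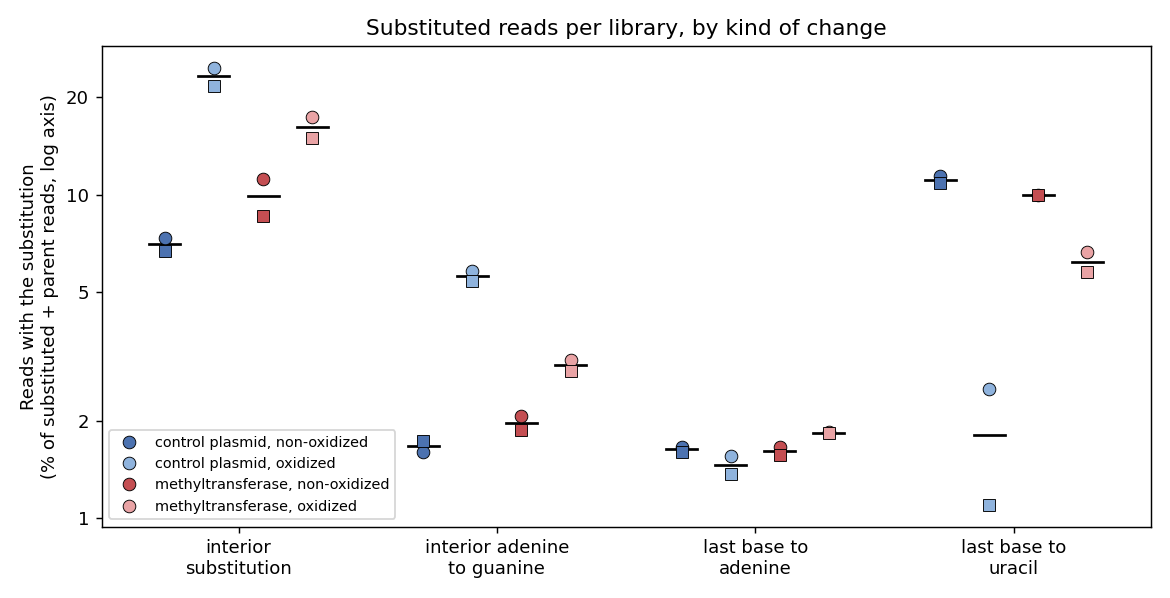
Percentage of reads with the substitution among substituted and parent reads (y axis, log scale) for 4 kinds of change, in the 4 groups (colours). Circles are library 1, squares library 2 and bars the mean of 2. Interior changes lie higher after oxidation under both plasmids, whereas the last base changed to uracil lies lower, at 1.80% against 11.1% and at 6.22% against 9.99%.

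Relative to their own parents, reads with an interior substitution were more frequent after oxidation. The fraction of interior substituted reads, out of those reads and the reads of their parents, was 7.02% ± 0.470 before oxidation and 23.2% ± 2.10 after it in control RNA (SD, n = 2 each). With the methyltransferase it was 9.91% ± 1.85 before and 16.2% ± 1.64 after oxidation (SD, n = 2 each). The groups did not overlap in any of the 4 comparisons of this fraction (exact two-sided permutation p = 0.333 for each, the smallest possible). The fraction in non-oxidized RNA was higher with the methyltransferase than with the control plasmid, by 2.89 percentage points. The most abundant parent had only 282 and 240 reads in oxidized control RNA, so the fraction there rests on far fewer reads than in the other groups. The listing, which required reads in the oxidized methyltransferase libraries, can raise the fraction in that group.

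With the methyltransferase, the ratio of oxidized to non-oxidized values lay in a narrow range across the most abundant parents. For the 12 with the most counts, the percentage of interior substituted reads after oxidation was 1.57 to 1.92 times that before it with the methyltransferase, and 3.91 to 5.60 times with the control plasmid. The control ratios rest on few oxidized reads, with 15 and 31 parent reads for the 22 nt let-7g-5p read. For the 22 nt let-7i-5p read the 2 oxidized control libraries were at 42.6% and 23.7%. In the let-7c-5p read of 22 nt the interior percentage was 6.62% and 6.22% in non-oxidized control RNA, 29.1% and 21.1% in oxidized control RNA, 9.93% and 8.09% with the methyltransferase, and 16.2% and 14.4% with the methyltransferase after oxidation. In the 24 nt miR-7a precursor read it was 12.6% and 9.30%, 46.3% and 42.2%, 21.6% and 12.9%, and 31.4% and 27.3% in the same order. The miR-7a read was above the let-7c-5p read in each of the 8 libraries. Over single sequences with at least 1000 parent reads in each methyltransferase library and 10 substituted reads in the 2 non-oxidized ones, the percentage was higher after oxidation in 1702 of 1795 interior cases with the methyltransferase, with a median ratio of 1.87. Under the same limits the percentage was higher in 40 of 42 sequences with a base not called, with a median ratio of 1.71. Sequences of 1 parent share its reads, so these cases are not independent. The listing, as inferred, required reads in the oxidized methyltransferase libraries, the upper part of this ratio, and left out changes that were rare there. It can therefore raise both the ratio and the number of cases above 1.

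Position 13 stood apart from all other positions. It held 210 of the substituted sequences and 532666 of their counts, more than any other position. Summed over the 28 most abundant parents, position 13 had 245 and 147 substituted reads per 10000 parent reads in non-oxidized control RNA, where the median of the other positions was 26.0 and 28.2. In oxidized control RNA it had 1378 and 1109 per 10000. With the methyltransferase it had 417 and 196 before and 587 and 440 after oxidation, against medians of 34.5 to 85.7 at other positions. The next highest position was 7 in 7 of the 8 libraries. Libraries numbered 1 were above those numbered 2 at position 13 in each group.

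**Figure D2:**
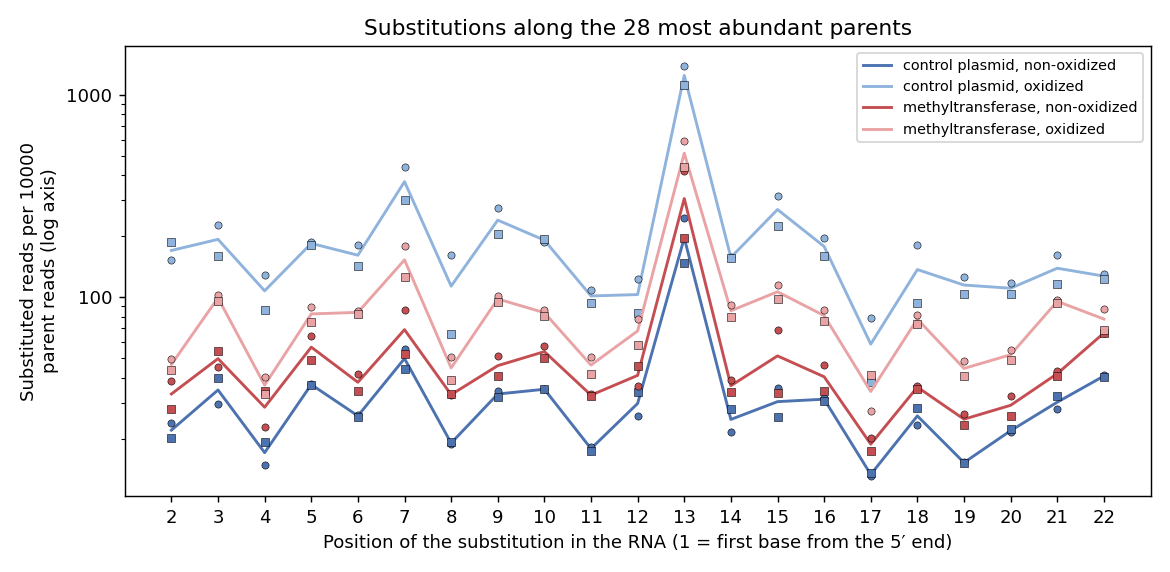
Substituted reads per 10000 parent reads (y axis, log scale) by position from the 5′ end (x axis), summed over the 28 parents with over 100000 counts. Lines are means of 2 libraries, circles library 1 and squares library 2; position 13 is the peak in all 4 groups, at 147 to 245 per 10000 in non-oxidized control RNA.

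The 3 interior changes with the most counts lay at position 13 of miR-7a and let-7c reads. The 24 nt mir-7a G13T read had 20878 and 13910 counts in the non-oxidized control libraries, 8 and 41 in oxidized control RNA, 22801 and 11350 with the methyltransferase and 19458 and 9387 with the methyltransferase after oxidation. Its share of parent reads was 4.91% and 2.38%, 13.6% and 19.3%, 9.73% and 3.94%, and 14.2% and 11.1% in the same order. Under each plasmid both oxidized libraries were above both non-oxidized ones, and the non-oxidized groups of the plasmids overlapped. The 23 nt miR-7a-5p G13T read, 1 base shorter, had 12841 and 9046 counts in the non-oxidized control libraries. With the methyltransferase it had 10336 and 6158 before and 9475 and 3678 after oxidation. Its shares were 4.75% and 2.38%, then 9.61% and 4.11%, then 14.1% and 10.9% in these 3 groups.

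For let-7c-5p T13G, the counts were 4380 and 4854 in non-oxidized control RNA, 18 and 11 in oxidized control RNA, 5494 and 5356 with the methyltransferase and 13618 and 10910 after oxidation. Its log2 fold change between plasmids in oxidized RNA was 9.82 ± 0.49 (SE; edgeR quasi-likelihood test, adjusted p = 5.1e-07), against 11.2 for its parent. Its share of parent reads was 0.750% and 0.654% in non-oxidized control RNA. It was 1.21% and 0.819% in non-oxidized and 2.08% and 1.98% in oxidized methyltransferase RNA. The share was thus higher in both oxidized methyltransferase libraries than in either non-oxidized library of that plasmid. The latter were themselves above the non-oxidized control libraries.

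Within the let-7c-5p read of 22 nt, nearly all interior changes had higher rates after oxidation. In non-oxidized control RNA the 18 transitions had a median of 27.0 reads per 10000 parent reads (range 9.57 to 58.4) and the 40 transversions a median of 1.59 (range 0.134 to 70.7). The highest of the transversions was T13G, at 75.6 and 65.9. The 3 A-to-G changes ranged from 27.5 to 39.7, the 7 T-to-C changes from 21.3 to 58.4 and the 8 G-to-A changes from 9.57 to 29.6. With the methyltransferase, 54 of the 58 interior changes had a higher rate after oxidation, with a median ratio of 1.89 (range 0.826 to 2.61). The change of the last base to A, T22A, was at 29.7 and 32.6 per 10000 before and 34.6 and 32.5 after oxidation, and these libraries overlapped.

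**Figure D3:**
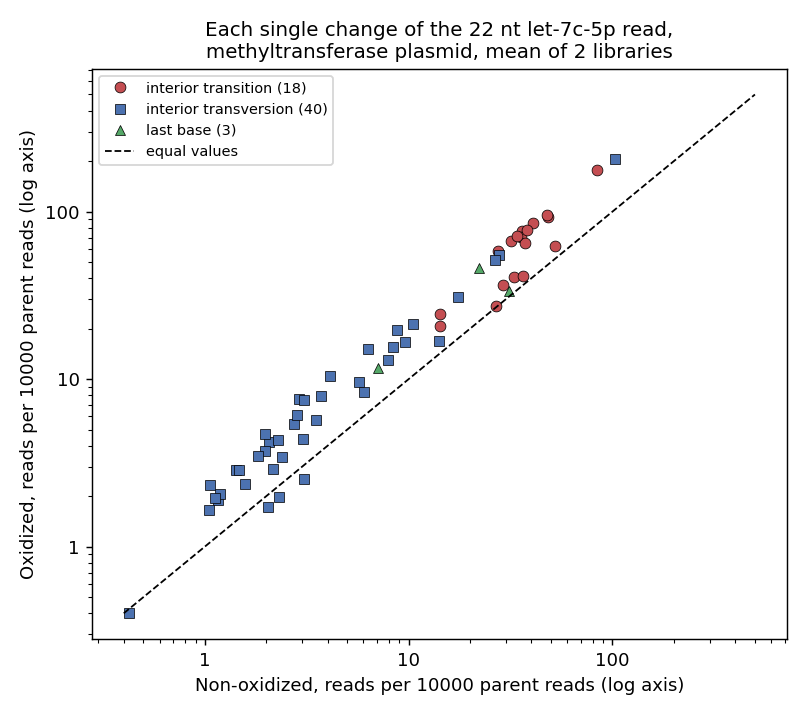
Reads per 10000 parent reads for each listed change of the 22 nt let-7c-5p read with a called base, before (x axis) and after (y axis) oxidation with the methyltransferase plasmid, means of 2 libraries on log axes. Of 58 interior changes, 54 lie above the line of equal values; transitions sit above most transversions.

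Some changes differed widely between the libraries of a group. In let-7c-5p the change A7C was at 27.0 per 10000 in library 1 and 7.49 in library 2 of the non-oxidized controls, at 46.0 and 9.77 with the methyltransferase, and at 73.3 and 36.3 after oxidation. Library 1 was higher in each of these groups. Replicate numbers mark no stated batch in the labels.

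Changes of the last base behaved in another way according to the new base. Of the 347 last-base changes, 142 were to A, 101 to T, 64 to C and 40 to G, and T took 49.6% of their counts and A 38.9%. In 330 of the 347 the read has the letters of a 1 base shorter miRNA sequence of the table plus 1 further nucleotide at the 3′ end. The fraction with the last base changed to T was 11.1% ± 0.411 (SD, n = 2) before oxidation and 1.80% ± 0.993 after it in control RNA. It was 9.99% ± 0.00603 and 6.22% ± 0.632 with the methyltransferase. The fraction changed to A was 1.63% before and 1.46% after oxidation in control RNA, against 1.61% and 1.84% with the methyltransferase (means of 2). The fraction changed to C was 0.191% and 0.983%, and 0.252% and 0.539%. Of the 4 new bases, the pooled fraction of T was thus lower after oxidation under both plasmids and those of C and G were higher under both, with G at 0.175% and 0.607%, and 0.213% and 0.273%. These fractions pool parents with very different shares, and the values of single sequences gave no such pattern for T in control RNA. There the median difference from the parent's log2 fold change with oxidation was -0.13 (quartiles -1.78 to 1.37, n = 90). Of the 92 tested, 83 had 3 counts or fewer in both oxidized control libraries, so these fitted values depend on the prior count.

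**Figure D4:**
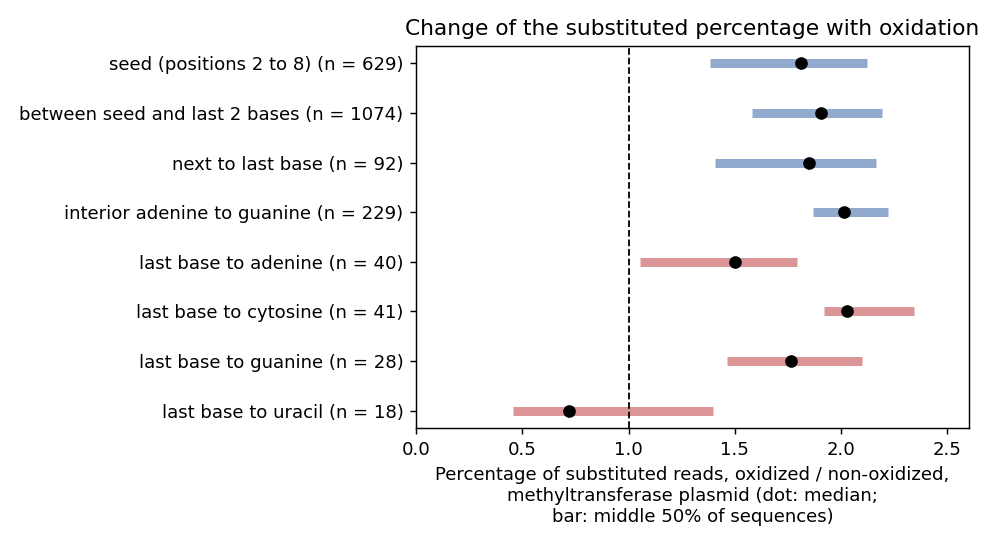
Ratio of the substituted percentage after to before oxidation with the methyltransferase plasmid (x axis), by kind of change. All sequences had reads after this oxidation, and a listing by these reads, as inferred, can raise the ratio. Dots are medians over sequences with at least 1000 parent reads in each methyltransferase library and 10 substituted reads in the 2 non-oxidized ones, bars the middle 50%; last base changed to uracil has a median of 0.718 (6 of 18 above 1), against 1.87 over all interior changes.

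The 2 most abundant last-base changes came from miR-375, a miRNA known for its role in beta cells. The 22 nt miR-375-3p A22T read, which ends in T in place of the A of its parent, had 23139 and 21235 counts in the non-oxidized control libraries, 26 and 3 in oxidized control RNA, 11446 and 12086 with the methyltransferase, and 2787 and 3415 after oxidation. Its share of parent reads was 5.22% and 4.95% in non-oxidized control RNA, 4.76% and 4.71% with the methyltransferase and 2.89% and 2.80% after oxidation, so both oxidized methyltransferase libraries lay below these other 4. The oxidized control libraries, with 26 and 3 substituted reads, were at 23.01% and 2.05%, on both sides of all other libraries. With oxidation of methyltransferase RNA it fell by 2.15 on the log2 scale (SE 0.53, edgeR quasi-likelihood adjusted p = 0.0186), and its parent by 1.39. That call was lost without either oxidized methyltransferase library (edgeR adjusted p = 0.149 without library 1 and 0.0881 without library 2) and with total listed counts (0.119) or upper-quartile factors (0.0806). The 23 nt read of the miR-375 precursor with T in place of the precursor's G at its end (G23T) had 25727 and 22627 counts in the non-oxidized control libraries and 696 and 598 parent reads, so the substituted read made up 97.4% of both. It fell by 3.30 on the log2 scale with oxidation of methyltransferase RNA (SE 0.41, adjusted p = 0.000234), and its parent by 2.98.

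With the methyltransferase, last-base changes to A of let-7b and let-7c reads of 23 nt had higher shares after oxidation. The 23 nt let-7b precursor read T23A had 7838 and 9779 counts in the non-oxidized control libraries, 7315 and 9192 with the methyltransferase and 10840 and 7910 after oxidation. Its share of parent reads, which end in T, was 8.54% and 9.39%, then 12.03% and 12.8%, then 29.1% and 34.1%, and the 3 groups did not overlap. The parent's own log2 fold change with oxidation was -1.76, that of T23A -0.08 ± 0.43 (SE; edgeR adjusted p = 0.931). The corresponding let-7c read, T23A at 23 nt, had shares of 11.8% and 13.2%, 13.9% and 14.8%, and 25.4% and 28.2%. In oxidized control RNA the let-7c read was at 7.14% and 42.9%, on 1 and 12 substituted reads. These values lay on both sides of all other libraries.

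Adenine-to-guanine changes, the change read from inosine, were 367 of the interior substitutions. Their fraction was 1.67% ± 0.0903 (SD, n = 2) before oxidation and 5.61% ± 0.272 after it in control RNA. It was 1.97% ± 0.132 and 2.98% ± 0.166 with the methyltransferase. The median ratio over sequences with oxidation of methyltransferase RNA was 2.01 (226 of 229 above 1), against 1.87 for all interior changes. The listing can raise both ratios. The pooled fraction was 1.51 times as high after oxidation for A-to-G and 1.63 times for all interior changes. The median difference from the parent's log2 fold change was 1.03 for A-to-G. It was 1.10 for T-to-C, 1.09 for A-to-C, 1.03 for T-to-G and 0.43 to 1.01 for the other called changes, so a high value was not particular to A-to-G. ADAR enzymes are known to prefer some bases before the edited A. Among the interior As of 122 parents, the change was listed for 51.5% of those after A, 53.4% after C, 56.9% after G and 55.3% after T. The median share of parent reads was 0.396% after G, 0.374% after A, 0.331% after C and 0.299% after T.

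In non-oxidized control RNA, A7G of miR-3099-3p had the highest share among A-to-G changes with enough parent reads and fewer counts than their parent. The A7G read of 22 nt lies in the seed. Its counts were 85 and 82 in non-oxidized control RNA, 0 and 2 in oxidized control RNA, 64 and 144 with the methyltransferase and 185 and 183 after oxidation. Its share of parent reads was 6.07% (95% Wilson interval 4.94 to 7.45) and 5.76% (4.67 to 7.10) in non-oxidized control RNA, 4.55% and 5.65% with the methyltransferase, and 4.68% and 5.88% after oxidation. The libraries overlapped between these 3 groups, and the higher share after oxidation that most interior changes had was not seen at this length. The other 4 listed A-to-G changes of the same parent had mean shares of 0.411% to 0.746% in non-oxidized control RNA and 1.13% to 1.68% in oxidized methyltransferase RNA. For A9G the share was 0.454% and 0.519% in non-oxidized control RNA. It was 0.740% and 0.661% in non-oxidized and 1.34% and 1.35% in oxidized methyltransferase RNA. The A7G change was also listed at 21 nt, at 4.43% and 2.74% in non-oxidized control RNA, 6.49% and 5.21% with the methyltransferase and 3.65% and 4.33% after oxidation. At 20 nt it was at 4.36% and 2.64%, then 2.42% and 2.78%, then 4.68% and 5.47%, so that there both oxidized methyltransferase libraries lay above the others, on 14 and 7 substituted reads. The lengths thus differed, and the difference was not tested. Its share was a criterion for naming it, so its rank is a description and not a test.

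**Figure D5:**
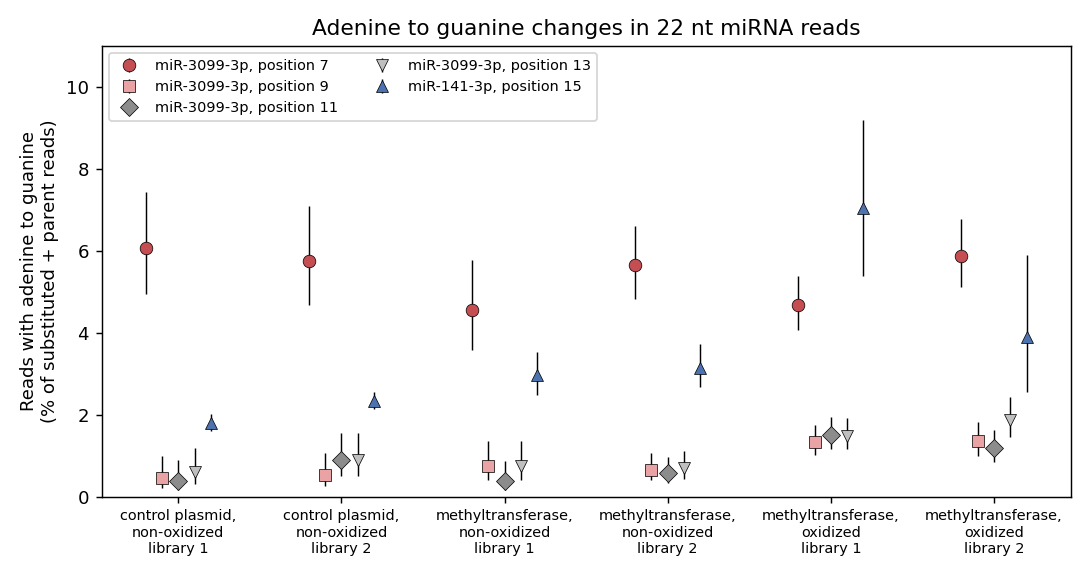
Percentage of reads with adenine to guanine among substituted and parent reads (y axis) in 6 libraries, for 5 changes in 22 nt reads; bars are 95% Wilson intervals, which cover counting error only. The change at position 7 of miR-3099-3p stays between 4.55% and 6.07%, while those at positions 9, 11 and 13 lie higher after oxidation.

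The A15G change recurred in miR-141-3p, miR-429-3p and the miR-200a precursor, which belong to the miR-200 family, known for its expression in epithelial and endocrine cells. In the 22 nt miR-141-3p read its share was 1.80% and 2.34% in non-oxidized control RNA, 2.96% and 3.15% with the methyltransferase and 7.05% and 3.90% after oxidation. The 3 groups did not overlap, in contrast to A7G of miR-3099-3p. The other A-to-G changes of this parent had mean shares of 0.365% to 0.636% in non-oxidized control RNA. At 21 nt the A15G share was 1.93% and 2.15%, then 3.67% and 3.04%, then 7.12% and 5.83%. In miR-429-3p it was 2.50% and 5.11%, then 3.42% and 3.99%, then 4.32% and 8.61%, with overlapping groups. In miR-200a precursor reads of 23 nt its mean was 1.31%, 1.87% and 5.22% in the same 3 groups. For let-7d-5p at 22 nt, A7G had mean shares of 0.916%, 1.11% and 1.97%.

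Of 15 miRNAs listed as known for A-to-I editing, 8 were in the table and 2, miR-3099-3p and miR-421-3p, were parents of substituted sequences. These had 46 substituted sequences, 12 of them interior A-to-G changes. The list gives no support of its own, since it was drawn up with earlier results of these data known.

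Among the let-7 reads, 153 substituted sequences carried a base that another let-7 member has at that position. They cover positions 9, 11, 12 and 16 to 19, behind the shared seed. The sequences with a base of another member had a median share of 0.180% of parent reads in non-oxidized control RNA (n = 142) and the others 0.0854% (n = 905). Within a given base change the difference was small for the transitions: 0.279% against 0.283% for T-to-C, 0.151% against 0.158% for G-to-A and 0.276% against 0.334% for A-to-G. It was larger for G-to-T, at 0.115% (n = 21) against 0.0135% (n = 95). The classes hold reads of the same parents at several lengths, so no test was made.

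The most abundant of the changes between let-7 members in 22 nt let-7c-5p reads was T18C, the base of let-7g and let-7i. It had 1444 and 2089 counts in the non-oxidized control libraries, 2 and 2 in oxidized control RNA, 1559 and 2162 with the methyltransferase and 4637 and 3768 after oxidation, and shares of 0.249% and 0.283%, then 0.346% and 0.332%, then 0.719% and 0.693%. G12A, the base of let-7f, was at 0.243% and 0.317%, then 0.310% and 0.411%, then 0.469% and 0.358%, and its groups overlapped with oxidation of methyltransferase RNA. T16C, the base of let-7d, was at 0.194% and 0.231% and, after oxidation with the methyltransferase, at 0.605% and 0.559%. In let-7b-5p the change G19A, the base of let-7a and others, was at 0.419% and 0.458% in non-oxidized control RNA and 1.04% and 0.917% in oxidized methyltransferase RNA.

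In 17 interior cases the read had the full letters of another miRNA sequence of the table, with 1 to 3 bases added at the 3′ end. They held 73129 counts in all. The A17G read of 24 nt from the let-7c-2 precursor has the letters of a let-7b precursor read plus 1 base. It had 11187 and 12386 counts in the non-oxidized control libraries, 0 and 0 in oxidized control RNA, 7214 and 8017 with the methyltransferase and 2206 and 1229 after oxidation, which is more than its parent in each library with reads. Its share was 82.8% and 82.8%, 84.3% and 82.4%, and 82.4% and 77.9% in the 3 groups with reads. In oxidized RNA it was at least 583-fold higher with the methyltransferase, computed with 3 counts per oxidized control library, and in control RNA at least 4969-fold lower after oxidation. With the methyltransferase it fell by 2.44 on the log2 scale with oxidation (SE 0.38, edgeR adjusted p = 0.00153), and its parent by 2.16.

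Similar pairs were found for miR-7 and let-7e. The A10T read of 25 nt from the mir-7a-1 precursor has the letters of miR-7b-5p plus 1 base, and its share of parent reads was 11.1% and 12.04% in non-oxidized control RNA, 11.7% and 13.6% with the methyltransferase and 14.1% and 13.1% after oxidation. The T9G read of 23 nt from the let-7a-1 and let-7a-2 precursors has the letters of let-7e-5p plus 1 base, with shares of 18.02% and 20.4%, 19.99% and 20.5%, and 14.6% and 19.7%. Neither share was higher after oxidation by the median factor of interior changes, and neither pair of parents can be told from the other by 1 read. Where the letters are those of another miRNA with bases trimmed or added, the count belongs to neither with certainty.

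Between plasmids in oxidized RNA, nearly all tested substituted sequences were higher with the methyltransferase. Of the 2837, 2253 passed the filter on low counts and 584 did not. By edgeR's quasi-likelihood test at an adjusted p under 0.05, 2166 were higher with the methyltransferase and 4 lower, where 42.3% of all tested sequences were higher and 3.92% lower. The listing itself was, as inferred, selected on the oxidized methyltransferase libraries, so this count can carry that choice. The median log2 fold change was 6.94, and 3.37 with the 1984 sequences whose oxidized control libraries held 3 counts or fewer set at their bound, against 0.82 over all sequences tested. The 4 lower ones were all changes at position 13 of 16 and 18 nt miR-7a-5p reads (G13A, G13C and G13T), named here after their values were seen. This count was 0 without oxidized methyltransferase library 2, and 2 without oxidized control library 2 or oxidized methyltransferase library 1.

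With oxidation of control RNA, 2158 were lower and 11 higher, where 46.4% of all tested sequences were lower and 18.4% higher, and the median was -7.47 (-4.06 with bounds). The 11 higher ones were all of 16 to 19 nt, with let-7 or miR-7a-5p parents, and 9 were changes at position 13. Of 49 tested substituted sequences of that length, 11 were higher and 9 lower. A genomic match was listed for 7 of the 11 higher ones. Among tested substituted sequences of any length, 7 of 77 with a genomic match were higher, and 4 of 2176 without one. Reads with a genomic match need not be substituted miRNA reads, and their origin was not tested. The 16 nt miR-7a-5p G13T read had 9 and 4 counts before and 131 and 69 after oxidation of control RNA, while its parent had 491 and 634 against 680 and 496. Its log2 fold change was 3.49 ± 0.59 (SE; edgeR adjusted p = 0.000301), with -0.31 for the parent. The deposited table gives this read 2 genomic matches. Without non-oxidized control library 2, 7 of the tested sequences were called higher.

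Between plasmids in non-oxidized RNA, none was called (0% of all tested sequences in either direction by edgeR), which does not show that none differed. At an unadjusted p under 0.05, 14 were higher and 95 lower, and DESeq2's Wald test called 0 higher and 13 lower. The median log2 fold change relative to that of the parent was 0.56 for interior changes and 0.04 for last-base changes.

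With oxidation of methyltransferase RNA, 26 were higher (1.15% of the 2253 tested) and 223 lower (9.90%). Of all tested sequences, 1.77% were higher and 11.2% lower, so substituted sequences were called no more often than the whole table. This comparison depended on scaling and on single libraries. With total listed counts as library size, 166 were higher and 115 lower, and with upper-quartile factors 162 and 133, so the calls that were higher went from 10.4% to 59.1% and 54.9%. Without oxidized methyltransferase library 1, 6 were higher and 139 lower, and without library 2, 8 and 113. Without non-oxidized methyltransferase library 1 or 2, 8 and 2 were higher, and without non-oxidized control library 1 or 2, 7 and 6. In the difference from the parent's own fold change the scaling of a library cancels. The median of this difference was 0.97 for interior changes, 0.72 for all last-base changes and -0.50 for last-base changes to T. The listing by oxidized methyltransferase reads can raise these medians. Of 92 tested changes of the last base to T, 51 were lower.

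The calls of this comparison were grouped by parent. Of the 26 higher ones, 15 came from the 21 nt let-7c-5p read, 9 from the 22 nt mir-151 precursor read and the other 2 from let-7 reads. In the former, T16G had 26 and 15 counts before and 127 and 110 after oxidation (log2 fold change 2.25 ± 0.53, SE; edgeR adjusted p = 0.0158), and its parent changed by 0.35. In the latter, T10C had 17 and 21 against 134 and 93 counts (2.30 ± 0.65, SE; adjusted p = 0.0366), its parent 0.78. The call of T16G was lost without non-oxidized methyltransferase library 2 (edgeR adjusted p = 0.165) or either oxidized methyltransferase library (0.0581 and 0.0545). That of T10C was lost without any 1 of the 4 methyltransferase libraries (0.0703 to 0.152). Of the 223 lower ones, 25 had miR-7a-5p as parent (of 101 tested), 23 miR-16-5p (of 34), 21 miR-26a-5p (of 21), 19 the mir-7a-1 precursor (of 21) and 17 miR-93-5p (of 23). In miR-16-5p, a widely expressed miRNA, G22A had 591 and 750 counts before and 11 and 6 after oxidation, and G10C 585 and 468 against 10 and 2. Their log2 fold changes were -6.55 ± 0.74 and -6.74 ± 0.70 (SE; edgeR adjusted p = 0.000123 and 6.53e-05), and that of their common parent was -6.75.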

How the data were processed

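The authors deposited 1 table with, per the file headers, a whole-number count of each distinct read sequence in each of 8 small RNA libraries (QIAseq miRNA kit, per the labels' protocols), its annotation hit and its number of genomic matches. Aligner, trimming, use of molecular identifiers and build are not given in the sources used here. Lines that repeat a sequence were merged (12608 lines, 11568 sequences).

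Substituted sequences were found by comparing the letters of sequences of equal length. The full table of 11568 sequences entered 1 quasi-likelihood model of the 4 groups in edgeR (version 4.0.16, under R 4.3.3). Low counts were removed by filterByExpr and libraries scaled by TMM factors, and p-values of the 9851 sequences left were adjusted together by Benjamini-Hochberg. A share of parent reads is the substituted count over substituted plus parent counts of a library. Folds against a group with 3 counts or fewer in every library are bounds. Differences in group shares were tested with an exact permutation test, two-sided (scipy 1.17.1). Intervals are 95% Wilson intervals; they and the floor of 3 counts (0.00102% of the smallest library's listed counts) cover counting error only. The model was tested on simulated data.

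Named sequences followed a fixed rule: the 8 with most counts; for each contrast the 2 highest and 2 lowest called fold changes among sequences whose counts averaged 50 or more and whose groups did not overlap; the 5 interior, and 5 interior A-to-G, changes with the highest share (parent at least 1000 counts in each non-oxidized control library); the 5 let-7 changes and 3 last-base changes with most counts; and A-to-G changes of miRNAs listed as edited. This gave 33. The members, lists and rules were chosen with earlier results of these data known. Alternatives were other scalings (size factors of DESeq2 1.42.0, listed totals, upper quartile), filters, the DESeq2 Wald test, fewer libraries, a replicate block, and stricter choices of members; 4 were chosen after seeing the data.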

Additional observations from a re-analysis of the deposited data

Results flagged for a closer look

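The share of listed counts held by the substituted sequences differed in opposite directions between oxidized and non-oxidized RNA under the 2 plasmids. The difference was -8.11 percentage points with the control plasmid and 5.93 with the methyltransferase plasmid, and both oxidized libraries lay beyond both non-oxidized ones in each case. The listing, inferred to require reads in the oxidized methyltransferase libraries, can raise the share there, and by how much was not tested. Whether these differences differ from each other was not tested. Relative to their parents, interior substituted reads were more frequent after oxidation under both plasmids, at 23.2% against 7.02% and at 16.2% against 9.91%. The listing can raise the 16.2% of the oxidized methyltransferase libraries as well.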

How the results depend on the processing

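Between plasmids in oxidized RNA, the 2166 higher and 4 lower substituted sequences became 1290 and 0 with only the 4 libraries compared, and 12 and 0 of 18 tested when each library had to hold at least 10 counts. The 4 lower ones became 2 with DESeq2 size factors, 44 with total listed counts, 20 with upper-quartile factors and 1 by the DESeq2 Wald test, and leaving out a library gave 2244 to 2442 higher and 0 to 5 lower. In non-oxidized RNA no alternative called any, except the DESeq2 Wald test with 13 lower (leaving out a library: 0 in both directions). With oxidation of control RNA, 11 higher and 2158 lower became 48 and 1159 with total listed counts, 30 higher with upper-quartile factors, 0 and 14 with at least 10 counts in every library, and 1422 lower with only the 4 libraries (leaving out a library: 7 to 12 and 2224 to 2373). With oxidation of methyltransferase RNA, 26 higher and 223 lower became 166 and 115 with total listed counts and 162 and 133 with upper-quartile factors, 13 higher with DESeq2 size factors, 16 without a filter, 47 with only the 4 libraries, and 4 and 3 with at least 10 counts in every library (leaving out a library: 2 to 29 and 113 to 246). Total listed counts shifted the median log2 fold change of all sequences by -2.99, 0.51, 4.30 and 0.86 in these 4 comparisons.

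The difference in the fraction of last-base changes turned sign in 7 cases: between plasmids in oxidized RNA (0.438 percentage points) it was -0.427 with parents at least 10 times the member and -0.121 without oxidized control library 2, where leaving out a library gave -0.121 to 0.998. With oxidation of control RNA (-1.14) it was 0.593 with such parents and 0.582 for changes to A, C or G, and with oxidation of methyltransferase RNA (-0.397) 0.174 and 0.633. Between plasmids in non-oxidized RNA (-0.307) it was 0.109 for changes to A, C or G. The interior and A-to-G differences and the share of listed counts kept their sign in all alternatives run. The interior fraction without position 13 was, before and after oxidation, 5.43% and 15.8% with the control plasmid against 7.55% and 12.6% with the methyltransferase plasmid, and over parents with over 100000 counts 6.87%, 30.1%, 9.86% and 16.4%.

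With total listed counts, 5 log2 fold changes of named sequences turned sign: with oxidation of control RNA those of let-7c-5p T16G at 21 nt (0.36), mir-151 precursor T10C (0.32), miR-141-3p A15G at 21 nt (0.29) and miR-3099-3p A7G at 21 nt (0.71), and between plasmids in oxidized RNA that of miR-3099-3p A7G at 21 nt (-0.28). The cause of these changes was not tested beyond the fewer sequences or libraries that an alternative itself leaves.

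Same-numbered libraries of different groups share only a number. Deviations of same-numbered libraries from group means correlated at -0.0275 to 0.334 over the 6 pairs of groups, highest between the non-oxidized groups of the 2 plasmids. With a replicate block, 2175 and 5, 0 and 0, 12 and 2158, and 33 and 241 were called higher and lower in the 4 comparisons, so no count moved by over 1.5 times.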
